A study of Mus musculus with 6 samples.

Results

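Expression of the genes for histone H2A.Z and for the proteins that exchange it was examined in the dorsal midbrain of Ezh2 cko and control mouse embryos. The set held 10 genes of the 18193 measured: the histone genes H2az1 and H2az2, and Srcap, Ep400, Anp32e, Znhit1, Vps72, Ruvbl1, Ruvbl2 and Ino80. Every probe set that the platform annotation gave to 1 of these genes only was included, which made 24 of the 45037 probe sets tested. All 24 were measured, with no filter on low signal. The gene H2az2 was chosen by its lower signal in Ezh2 cko midbrains in these same data. Its values are therefore given as a description, with no p-value. Where its probe sets are counted as past a threshold, that restates how the gene was chosen and is no test of it.

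Ezh2 is the methyltransferase of polycomb repressive complex PRC2. Ezh2 cko embryos were Wnt1-Cre+/Ezh2[SET] lox/lox, so that Cre recombined both floxed copies of Ezh2 in Wnt1-expressing cells and their descendants. Control embryos are labelled WT, while the methods use embryos with Wnt1-Cre and 1 floxed copy, or with 2 floxed copies and no Cre, as controls. Which of these served on each array is not given. Both groups were C57BL/6 embryos at embryonic day 10.5, with 3 arrays each, and tissue of each group came from 2 litters that the labels do not assign to arrays. Wnt1-Cre is also active in the neural crest. In sections of embryos older than those on the arrays, the study describes recombination as complete in the caudal and partial in the rostral dorsal midbrain. The values are log2 signals, so that a difference of 1 is a doubling. They carry no read depth, and the number of arrays limits their precision. The single Ezh2 probe set read 11.79, 11.74 and 11.72 in Ezh2 cko midbrains, against 11.69, 11.76 and 11.66 in control midbrains. The position of that probe set relative to the floxed part is not known here, so it does not check the deletion. RMA signals have no level for absence, so no marker could be called missing from the dissected tissue. Some markers of other tissues read far above the median of 5.70 over all probe sets. The erythroid marker Hbb-y had means of 14.63 in Ezh2 cko and 14.56 in control midbrains, and the mesenchyme marker Col3a1 had 12.75 and 12.55. Others were dim, such as the erythroid marker Hba-a1 at 4.24 and 4.36.

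H2A.Z is a variant of histone H2A that takes the place of the canonical histone in nucleosomes, above all next to transcription start sites and at enhancers. Its paralogs H2az1 and H2az2 encode nearly identical proteins. Unlike canonical histones, they are made outside S phase as well. Large remodelling complexes place the variant: the SRCAP complex, built on the ATPase Srcap, and the TIP60-p400 complex, built on the ATPase Ep400. Vps72, also called YL1, binds H2A.Z in both complexes, and Znhit1 is a subunit of the SRCAP complex. The chaperone Anp32e takes H2A.Z out of nucleosomes, and the INO80 complex, built on the ATPase Ino80, acts on H2A.Z nucleosomes and has been linked to H2A.Z removal in yeast. Ruvbl1 and Ruvbl2 are partner AAA+ ATPases that all of these complexes share. In embryonic stem cells, H2A.Z has been found at many promoters that PRC2 occupies.

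The promoters of the H2A.Z genes and of Anp32e are shown because they hold several copies of a motif that the choice of genes did not use, the CCAAT box, a pentamer bound by the transcription factor NF-Y. RefSeq promoters on GRCm38.p6, each running 250 bases before to 50 bases after an annotated start, were matched for 9 of the 10 genes, which gave 10 promoters because Znhit1 had 2. Capitals mark CCAAT on either strand, so that a box on the other strand reads ATTGG. The H2az2 window lies at chr11:6444394-6444693 on the minus strand, the H2az1 window at chr3:137864237-137864536 on the plus strand and the Anp32e window at chr3:95929007-95929306 on the plus strand.
H2az2: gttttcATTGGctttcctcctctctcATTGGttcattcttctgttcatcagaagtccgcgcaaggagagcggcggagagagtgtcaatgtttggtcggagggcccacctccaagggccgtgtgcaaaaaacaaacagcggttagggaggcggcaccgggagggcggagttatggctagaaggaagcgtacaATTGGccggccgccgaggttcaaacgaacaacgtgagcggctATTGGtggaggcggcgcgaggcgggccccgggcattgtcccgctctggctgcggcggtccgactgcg
H2az1: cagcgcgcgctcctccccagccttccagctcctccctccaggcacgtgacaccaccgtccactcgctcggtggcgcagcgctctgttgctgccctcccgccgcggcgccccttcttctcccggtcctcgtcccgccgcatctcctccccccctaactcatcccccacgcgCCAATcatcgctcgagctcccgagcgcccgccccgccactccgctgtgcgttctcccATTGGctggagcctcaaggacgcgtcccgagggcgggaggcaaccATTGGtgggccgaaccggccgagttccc
Anp32e: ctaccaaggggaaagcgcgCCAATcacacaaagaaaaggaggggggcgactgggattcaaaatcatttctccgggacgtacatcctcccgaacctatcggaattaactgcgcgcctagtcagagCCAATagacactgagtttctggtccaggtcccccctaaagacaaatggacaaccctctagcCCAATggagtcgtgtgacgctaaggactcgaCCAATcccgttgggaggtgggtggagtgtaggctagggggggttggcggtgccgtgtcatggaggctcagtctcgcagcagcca

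The H2az2 promoter held 4 CCAAT boxes, all of them on the opposite strand. The H2az1 promoter held 3, of which 1 was on the coding strand and 2 on the opposite strand, and the Anp32e promoter held 4, all on the coding strand. Among the other members, Ruvbl2 had 3 boxes, Ruvbl1 had 2 and Ino80 had 1, whereas none was found in the windows of Srcap, Ep400 and Znhit1. At least 3 boxes were thus present in 4 of the 10 promoters, while 3.37% of all 32851 promoters of the same length held at least 3 and 1.06% held at least 4. CCAAT was 1 of 4 motifs searched, on both strands, and it was picked for display after the counts were seen. GGGCGG, the GC box, occurred in 7 of the 10 member promoters and in 35.7% of all promoters. TATAAA occurred in Ruvbl1 alone among the members and in 13.6% of all promoters, and the palindrome CACGTG in H2az1, in 1 Znhit1 promoter and in 7.15% of all promoters. The motifs were counted separately, whatever their overlap, and a match of letters is no evidence of binding. The H2az2 promoter contained 27 CpG dinucleotides at 60.7% GC and the H2az1 promoter 34 at 71.3% GC, beside a median of 7 CpG and 52.7% GC over all promoters. A count of at least 3 was therefore common to H2az2, the gene with the lower signal in Ezh2 cko midbrains, and to H2az1, Anp32e and Ruvbl2, whose signals did not pass the test.

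The H2A.Z genes themselves differed from each other. H2az2 was lower in all Ezh2 cko arrays than in any control array on both of its probe sets, by 39.3% and 46.2%, whereas both H2az1 probe sets overlapped between the groups. Probe set 1428029_a_at of H2az2 read 12.34, 12.36 and 12.34 in Ezh2 cko midbrains and 13.01, 13.08 and 13.11 in control midbrains, a difference of -0.72 (standard error 0.07). Probe set 1436596_at of H2az2 read 9.09, 9.14 and 9.24 in Ezh2 cko midbrains and 9.97, 10.10 and 10.08 in control midbrains, a difference of -0.90 (standard error 0.08). The Ezh2 cko arrays lay close together on both sets, and the gap between the groups was many times the spread within them (SD 0.01 and 0.08 among Ezh2 cko arrays, and 0.05 and 0.07 among control arrays, for 1428029_a_at and 1436596_at in that order). That gap beside so narrow a spread largely restates how the gene was chosen. The standard errors take no account of that choice either. Over the 6 arrays the signals of the pair of H2az2 probe sets correlated at 0.994, a value that mostly repeats the gap between groups, and their deviations from the group means correlated at 0.595. Of all 45037 differences, 12 lay below that of 1436596_at and 26 below that of 1428029_a_at.

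**Figure D1:**
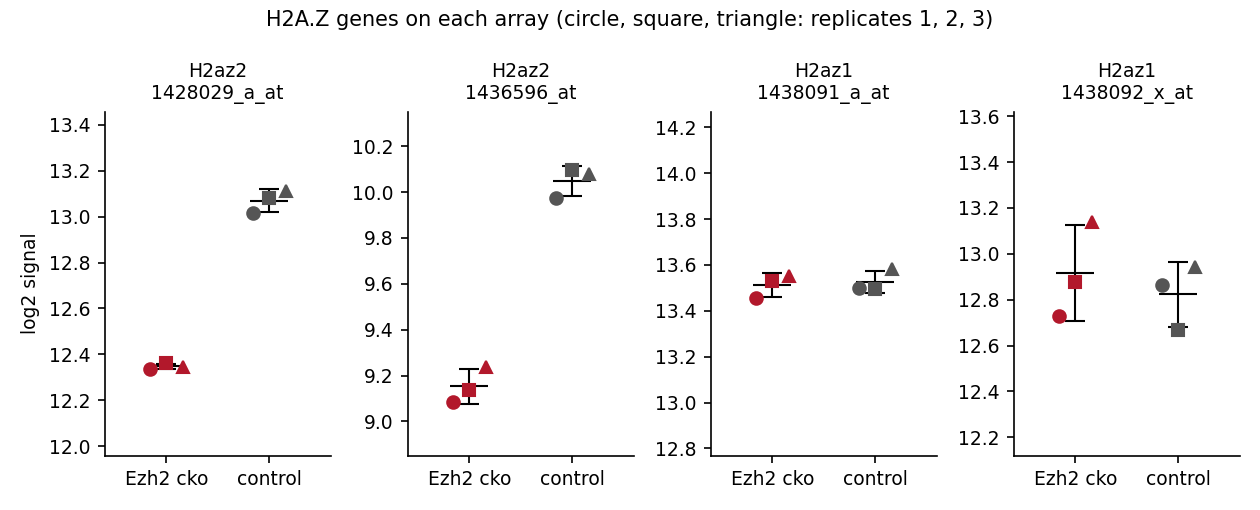
Log2 signal (y axis) of the H2az2 and H2az1 probe sets on each array, with Ezh2 cko arrays in red and control arrays in grey. Horizontal ticks are group means, error bars are SD (n = 3 arrays each), and every panel spans the same log2 range. Both H2az2 sets separate the groups, and both H2az1 sets overlap.

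H2az1 probe set 1438091_a_at read 13.45, 13.53 and 13.55 in Ezh2 cko midbrains, against 13.50, 13.49 and 13.58 in control midbrains. The difference was -0.01 with a 95% interval of -0.18 to 0.16 (adjusted p = 0.985, limma with Benjamini-Hochberg adjustment over all probe sets, as for every adjusted p below). Probe set 1438092_x_at of H2az1 read 12.73, 12.88 and 13.14 in Ezh2 cko midbrains, against 12.86, 12.67 and 12.94 in control midbrains, a difference of 0.09 with an interval of -0.18 to 0.37 (adjusted p = 0.913). A change of H2az1 as large as that of H2az2 lies outside both intervals. Another pair of probe sets, annotated to both H2az1 and the predicted gene Gm8203 and therefore left out of the members, gave 0.01 (1416415_a_at, adjusted p = 0.993) and 0.19 (1456032_x_at, adjusted p = 0.818). With each probe set first set to its control mean, the mean H2az2 signal minus the mean H2az1 signal was -0.76, -0.84 and -0.94 in Ezh2 cko midbrains, against -0.07, 0.12 and -0.05 in control midbrains. The shift of H2az2 relative to its paralog was thus present on each Ezh2 cko array. It largely repeats the lower H2az2 signal by which the gene was chosen. In dissected tissue, fewer cells that express a gene and less RNA per cell cannot be told apart.

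Across the set, 2 of the 24 probe sets passed an adjusted p of 0.05, both lower in Ezh2 cko midbrains and both of H2az2. In the background of all probe sets, 0.00444% were called lower, and 0.189% were called in either direction. The H2az2 probe sets were in fact the only 2 lower calls among the 45037, and H2az2 entered the set for that reason. The methods set limits on the fold change and on p instead, and with p taken here as unadjusted 1 member probe set met them as lower (1436596_at of H2az2), where 0.0200% of all probe sets did. Omitting Ezh2 cko replicate 1 or 3, or control replicate 2 or 3, left 1 of the H2az2 probe sets past the adjusted threshold, and the unpaired test of the methods left 0. The nearest member outside the adjusted threshold was Ep400 1453130_at, with a difference of -0.22. All Ezh2 cko arrays lay below all control arrays for 4 member probe sets, where 7.27% of all probe sets did so, and above them for 1, where 5.72% did so. Without H2az2, none of the remaining 22 probe sets passed (adjusted p between 0.618 and 0.999), and 2 had an unadjusted p under 0.05, as did 3400 of all 45037 probe sets. The unmoderated test of the methods called none of the 22 after adjustment. It called 0 of all 45037 probe sets, so this says nothing about the members. The median difference of these 22 was -0.03, near the -0.02 of all probe sets. Of the 22, 14 lay below 0, as did 25613 of all 45037. At or above the median signal 12 of 16 did so, and below it 2 of 6. The p-values weigh each group difference against the spread between arrays within the groups, which may in part be technical. They treat the arrays as independent, although the 3 of each group came from 2 litters.

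**Figure D2:**
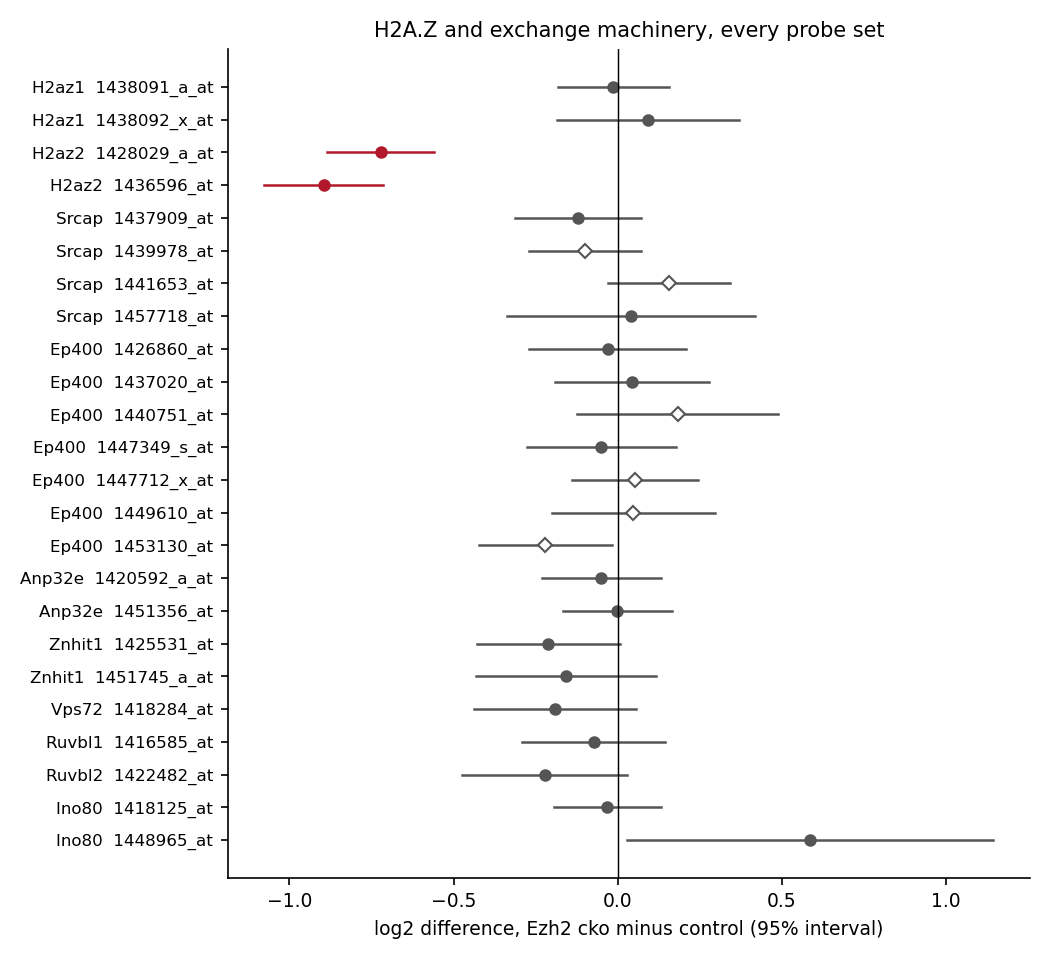
Log2 difference, Ezh2 cko minus control (x axis), of each of the 24 probe sets (y axis, gene and probe set), with 95% intervals from limma. Red marks H2az2, and open diamonds mark the 6 probe sets below the median signal of all probe sets. The H2az2 intervals lie apart from all others, and all other points except Ino80 1448965_at lie within 0.25 of 0.

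Among the genes that deposit H2A.Z, the ATPases gave small differences with no common direction over their probe sets. Of these, 2 of the 4 Srcap sets and 4 of the 7 Ep400 sets read below the median signal of all probe sets. Srcap 1437909_at read 7.68, 7.56 and 7.57 in Ezh2 cko midbrains, against 7.63, 7.83 and 7.72 in control midbrains, a difference of -0.12 (95% interval -0.31 to 0.07, adjusted p = 0.809). Srcap 1457718_at gave 0.04 with a wide interval of -0.34 to 0.42 (adjusted p = 0.978), and control replicate 1, at 7.17, stood below the other 5 arrays, which read 7.49 to 7.82. The remaining pair of Srcap probe sets separated the groups in opposite directions: 1439978_at gave -0.10 (adjusted p = 0.822) and 1441653_at gave 0.16 (adjusted p = 0.731). Both of these read below the median signal of all probe sets, at group means of 4.51 and 4.93 in Ezh2 cko midbrains and 4.61 and 4.77 in control midbrains.

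Ep400, the ATPase of the TIP60-p400 complex, had 7 probe sets, of which 3 lay below 0 and 4 above. Its brightest, 1447349_s_at, read 10.70, 10.51 and 10.34 in Ezh2 cko midbrains, against 10.54, 10.59 and 10.57 in control midbrains, a difference of -0.05 (95% interval -0.28 to 0.18, adjusted p = 0.947). Ep400 1426860_at, almost as bright, gave -0.03 (95% interval -0.27 to 0.21, adjusted p = 0.973). The Ezh2 cko arrays were more spread than the control arrays on both of these sets. The dim set 1453130_at read 5.35, 5.41 and 5.30 in Ezh2 cko midbrains, against 5.70, 5.59 and 5.44 in control midbrains. Its groups did not overlap, but its difference of -0.22 (95% interval -0.42 to -0.02) did not pass the test (adjusted p = 0.618, unadjusted p = 0.0356). The other 4 Ep400 sets gave differences of 0.04 to 0.18, all with overlapping groups. The brightest of these 4, 1437020_at, had means of 5.86 in Ezh2 cko and 5.82 in control midbrains. That was near the median of 5.70 over all probe sets, and the rest of the 4 read below it.

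Vps72 and Znhit1, the smaller subunits of the deposition machinery, and Ruvbl2 had their highest signal on the same array. Vps72 read 9.61, 9.55 and 9.49 in Ezh2 cko midbrains, against 9.72, 9.95 and 9.55 in control midbrains, a difference of -0.19 (95% interval -0.44 to 0.06, adjusted p = 0.756). Znhit1 1425531_at read 8.27, 8.21 and 8.14 in Ezh2 cko midbrains, against 8.42, 8.57 and 8.26 in control midbrains, a difference of -0.21 (95% interval -0.43 to 0.01, adjusted p = 0.679). Znhit1 1451745_a_at read 10.36, 10.25 and 10.27 in Ezh2 cko midbrains, against 10.39, 10.72 and 10.25 in control midbrains, a difference of -0.16 (95% interval -0.43 to 0.12, adjusted p = 0.823). Control replicate 2 was the highest of the 6 arrays on all 3 of these probe sets and on that of Ruvbl2. It was also the highest on Srcap 1437909_at (7.83), on Ino80 1418125_at (8.92) and for Kat5 (9.34), a subunit outside the set. The trait is therefore not particular to these genes. Without that array the differences were -0.09 for Vps72, -0.13 and -0.02 for the Znhit1 sets 1425531_at and 1451745_a_at in that order, and -0.15 for Ruvbl2. Without control replicate 3, the lowest control array on these 4 probe sets, they were larger, at -0.29 for Vps72, -0.29 for Znhit1 1425531_at, -0.26 for Znhit1 1451745_a_at and -0.33 for Ruvbl2, and none passed the test (adjusted p between 0.407 and 0.530).

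Of the shared AAA+ ATPases, Ruvbl2 read 10.65, 10.50 and 10.42 in Ezh2 cko midbrains, against 10.80, 10.90 and 10.54 in control midbrains. The difference of -0.22 (95% interval -0.47 to 0.03) did not pass the test (adjusted p = 0.715). Its partner Ruvbl1 read 10.65, 10.60 and 10.39 in Ezh2 cko midbrains, against 10.69, 10.66 and 10.51 in control midbrains, a difference of -0.07 (95% interval -0.29 to 0.14, adjusted p = 0.910). For both ATPases the third replicate was the lowest array of its group and the groups overlapped.

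On the removal side, the chaperone Anp32e had narrow intervals around 0. Anp32e 1451356_at read 12.58, 12.59 and 12.51 in Ezh2 cko midbrains, against 12.58, 12.51 and 12.59 in control midbrains, with a 95% interval of the difference of -0.17 to 0.16 (adjusted p = 0.999). Anp32e 1420592_a_at read 12.25, 12.38 and 12.33 in Ezh2 cko midbrains, against 12.42, 12.27 and 12.42 in control midbrains, a difference of -0.05 (95% interval -0.23 to 0.13, adjusted p = 0.930). Both sets thus bound any change of Anp32e below 0.25 in either direction at the 95% level.

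The probe sets of Ino80 disagreed. Ino80 1418125_at was tight, at 8.84, 8.83 and 8.86 in Ezh2 cko midbrains and 8.88, 8.92 and 8.83 in control midbrains, a difference of -0.03 (95% interval -0.19 to 0.13, adjusted p = 0.955). Ino80 1448965_at read 6.16, 6.09 and 6.49 in Ezh2 cko midbrains, against 6.21, 5.66 and 5.11 in control midbrains. Its difference of 0.59 (95% interval 0.03 to 1.14) was the highest of the set and did not pass the test (adjusted p = 0.639), with control arrays spread over more than a doubling. Without control replicate 3 it was 0.31. A further probe set shared by Ino80, Rpl35a and other genes was left out of the members.

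**Figure D3:**
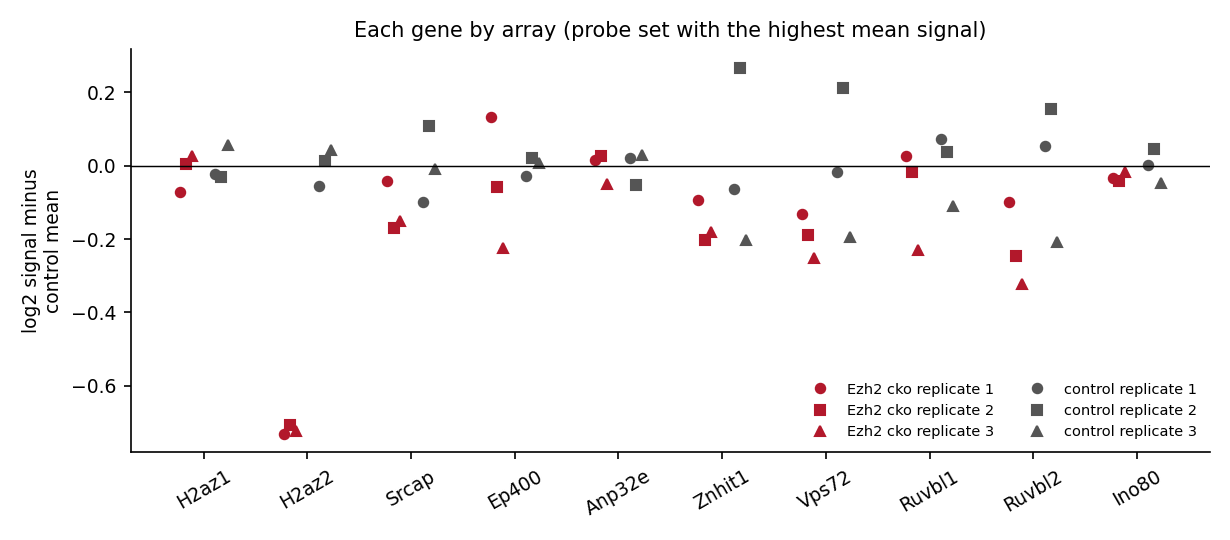
Log2 signal minus the control mean (y axis) for the probe set of highest mean signal of each gene (x axis), with Ezh2 cko arrays in red left of control arrays in grey and marker shapes giving the replicate number. Only H2az2 has its Ezh2 cko arrays far below its control arrays, and control replicate 2 is the highest array for Srcap, Znhit1, Vps72, Ruvbl2 and Ino80.

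The other subunits of the 3 complexes showed no called change. None of the 4 other SRCAP subunits, 10 other TIP60-p400 subunits and 11 other INO80 subunits passed, with median differences of -0.04, -0.02 and -0.04 in that order beside -0.02 over all probe sets. Subunits that also belong to another of the complexes were listed once. The lowest differences were those of Dmap1 (-0.11, adjusted p = 0.829) for SRCAP, of Meaf6 (-0.13, adjusted p = 0.740) for TIP60-p400 and of Ino80e (-0.14, adjusted p = 0.794) for INO80. Meaf6, a subunit of histone acetyltransferase complexes, was the only gene of these 25 without overlap, at 9.89, 9.87 and 9.83 in Ezh2 cko midbrains and at 9.99 or slightly above on each control array. Of all probe sets, 7.27% had every Ezh2 cko array below every control array. Next in size were Actl6a (-0.05, adjusted p = 0.933), an actin-related subunit, Epc1 (0.09, adjusted p = 0.852), an enhancer of polycomb homolog, and Uchl5 (-0.11, adjusted p = 0.841), a deubiquitinase. Kat5, the TIP60 acetyltransferase itself, differed by -0.06 (adjusted p = 0.936).

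Genes for other histone variants and for proteins that read or carry histones gave no call either. Of 3 proteins that bind H2A.Z nucleosomes, Pwwp2b differed by -0.16 (adjusted p = 0.742) and Pwwp2a by -0.03 (adjusted p = 0.967). Among 5 other H2A variants, Macroh2a1 differed by 0.13 (adjusted p = 0.789) and H2ax, the variant phosphorylated at DNA breaks, by 0.04 (adjusted p = 0.956). Of 4 other replacement histones, the genes for H3.3 gave -0.25 (H3f3b, adjusted p = 0.875) and -0.14 (H3f3a, adjusted p = 0.849), and copies of these genes elsewhere in the genome make such values uncertain. Their probe sets were also dim, with Ezh2 cko and control means of 6.37 and 6.61 for H3f3b and 5.82 and 5.97 for H3f3a. The median over all probe sets was 5.70, and the standard error for H3f3b was 0.25. The median difference of this list draws on both. Among 11 other histone chaperones, Chaf1b of the replication-coupled CAF-1 complex differed by -0.23 (adjusted p = 0.721) and Nasp by -0.10 (adjusted p = 0.880). The median differences of these lists were -0.03, -0.00, -0.13 and -0.04 in the order given. H2az2 lay below every gene measured in the lists of complexes, variants, readers and chaperones, which restates how H2az2 was chosen.

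**Figure D4:**
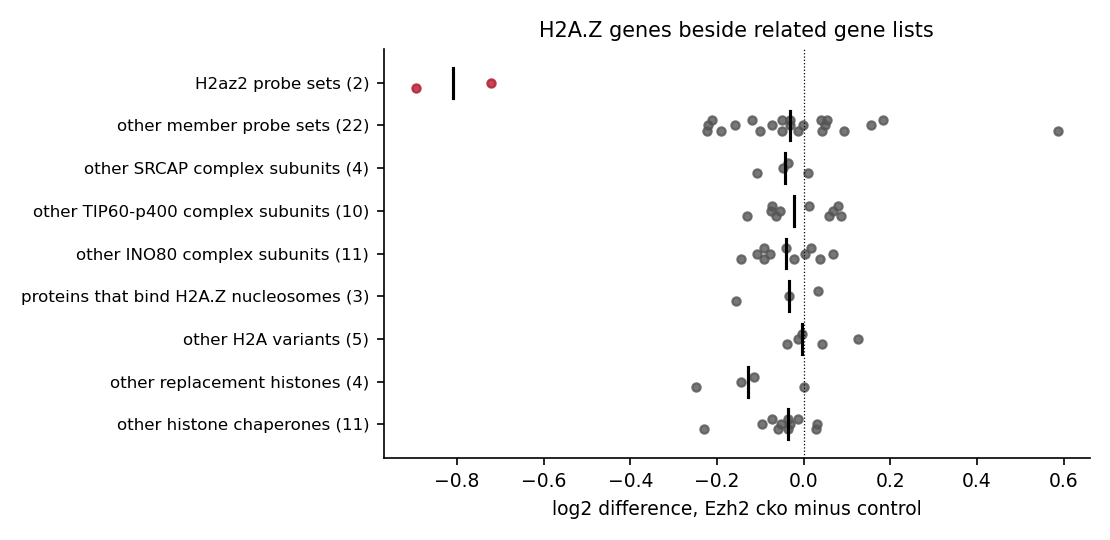
Log2 difference, Ezh2 cko minus control (x axis), of the H2az2 probe sets (red), the other member probe sets and the genes of 7 related lists (grey, y axis, number of points in brackets). Black bars are medians, and points are offset vertically for legibility. The list medians lie between -0.13 and 0.

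Markers of other cell types and of proliferation were read on the same arrays. None of 17 proliferation genes passed. All 17 of their differences lay below 0, as did 25613 of all 45037 probe sets, and their median was -0.05. The median of the proliferation genes per array, relative to the mean of each gene, was 0.04, -0.04 and -0.10 in Ezh2 cko midbrains, against 0.06, 0.02 and -0.01 in control midbrains. The median of 18 neuron markers was -0.08, 0.17 and 0.42 in Ezh2 cko midbrains, against -0.47, -0.05 and -0.01 in control midbrains, and that of 10 mesenchyme markers was 0.07, 0.13 and 0.25 in Ezh2 cko midbrains, against -0.40, -0.04 and -0.03 in control midbrains. None of the neuron or mesenchyme markers passed, but most of their differences lay above 0. This held for 17 of the 18 neuron and 9 of the 10 mesenchyme markers, where 19424 of all 45037 probe sets did so. The median differences were 0.36 for neuron and 0.35 for mesenchyme markers. Control replicate 1 had the lowest median of all arrays on both lists. With the neuron marker mean as a term of the model, the H2az2 differences were -0.76 for 1428029_a_at and -1.01 for 1436596_at, and with the proliferation mean as a term they were -0.74 and -0.96. Neither H2az2 probe set passed the adjusted threshold with either term. Among Ezh2 cko arrays, where replicate 3 had the highest neuron median, H2az2 1436596_at was highest in replicate 3 and H2az2 1428029_a_at in replicate 2. The order on 1428029_a_at rests on 3 arrays with an SD of only 0.01. The part of cell composition in the H2az2 difference was not tested. Of 8 surface epithelium markers, Epcam and Cdh1 rose in Ezh2 cko midbrains, by 1.33 (adjusted p = 0.00368) and 0.77 (adjusted p = 0.0166). The other 6 did not pass, 3 of the 8 differences lay below 0 (Krt5, Krt14 and Trp63), and the median difference of the list was 0.06. The part of Epcam and Cdh1 in the H2az2 difference was not tested. Erythroid, endothelial, macrophage, neural crest and neural progenitor markers had no calls, with median differences of -0.01, 0.07, 0.24, 0.06 and 0.04 in that order.

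**Figure D5:**
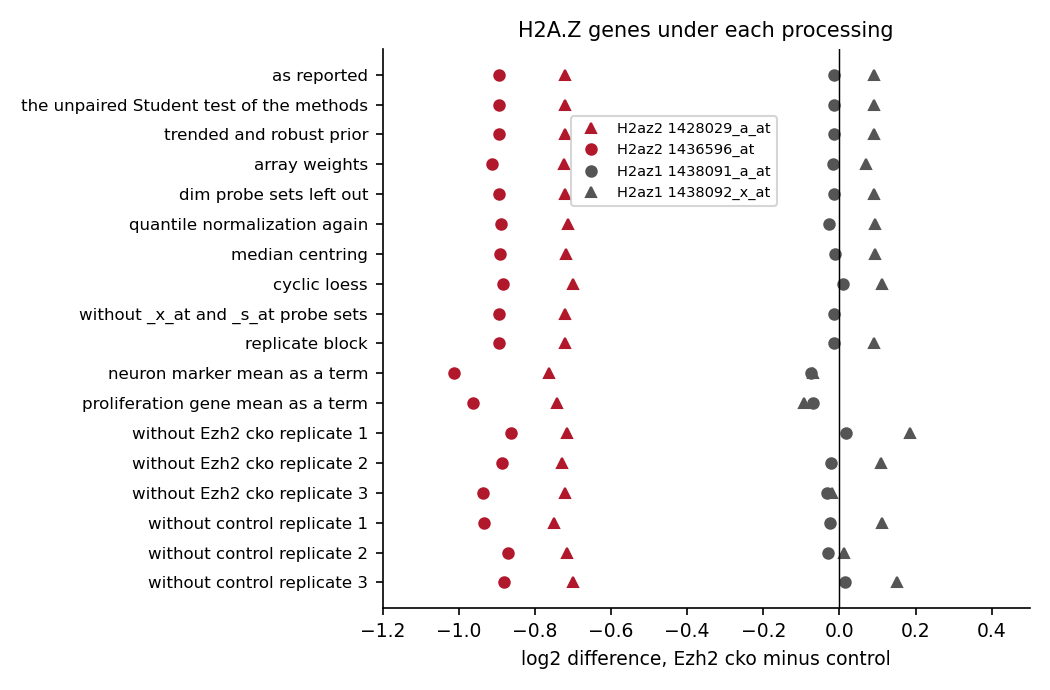
Log2 difference, Ezh2 cko minus control (x axis), of the H2az2 (red) and H2az1 (grey) probe sets as reported and under each other processing or omitted array (y axis). H2az2 stays between -1.01 and -0.70, and H2az1 stays within 0.19 of 0.

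The genes beside H2az2 on chromosome 11 were looked up after the H2az2 values had been seen, by position alone, from the RefSeq gene order. Of the 3 measured neighbours on each side, Purb differed by -0.20 (adjusted p = 0.660) and Myo1g by -0.20 (adjusted p = 0.615), both without overlap between groups. All Ezh2 cko arrays lay below all control arrays for 7.27% of all probe sets as well. Purb and Myo1g lie next to H2az2 on 1 side. Zmiz2, the nearest on the other side, differed by -0.19 (adjusted p = 0.803) with overlapping groups. Tmed4, Ogdh and Ccm2, farther out, differed by -0.01, -0.08 and -0.07 in that order. None of the 6 passed. The H2az2 difference, by which that gene was chosen, was more than 3 times the largest of them.

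The pattern of H2az2 over arrays was matched against 20258 probe sets with 1 gene symbol and at least median signal. Over the 6 arrays, the highest Pearson correlations with the mean H2az2 signal belonged to Tmem126a (0.996), Mknk2 (0.988), Bsn (0.988), Spred1 (0.986) and Ppp2r3c (0.985). All of these separated the groups, by only -0.12 to -0.17, so their likeness rests on the gap between groups. Tmem126a, a mitochondrial membrane protein, read 11.29, 11.31 and 11.33 in Ezh2 cko midbrains, against 11.46, 11.49 and 11.48 in control midbrains, a difference of -0.17 (adjusted p = 0.618). By deviations from the group means, the most alike were St7l (0.999), Rab33b (0.999), Slc9a9 (0.998), Socs7 (0.998) and Apaf1 (0.998), and the groups overlapped for all 5. The lists drawn by these measures shared no gene. Picked as the highest of 20258 over only 6 arrays, such correlations can arise without any relation to H2az2. The deviations of the H2az2 probe sets themselves correlated at only 0.595. The points of each correlation share the same 6 arrays, and no member of the H2A.Z machinery could enter either list, since members were left out of the candidates.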

How the data were processed

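RNA of dorsal midbrain from 3 Ezh2 cko and 3 control embryo samples had been hybridised to Affymetrix A430 arrays, 1 per sample. The authors deposited log2 signals, 1 per probe set, made with RMA according to the submitters' processing notes. The software version is not given in the sources used here. RMA equalises the signal distribution of arrays, and the array medians were 5.68 to 5.72. All 6 columns were mapped by their sample names, and 0 columns belonged to other samples.

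The manufacturer's 64 control probe sets were left out. A linear model with moderated variances (limma 3.58.1, R 4.3.3; two-sided, Ezh2 cko minus control, no covariate) was applied to the remaining 45037, with Benjamini-Hochberg adjustment over all of them and a threshold of 0.05. The procedure was tested on simulated data. The methods name no array test, so their unpaired test was run as an alternative, together with other priors, weights, normalizations and filters, a replicate block, marker means as terms and the omission of each array. Symbols came from the platform annotation through Entrez identifiers (34741 of 34945 single-symbol probe sets matched). Promoter counts used Python 3.11.15 and plots matplotlib 3.10.9.

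Members and gene lists were chosen with earlier results of these data known. All members are named with every probe set. From each related list, called genes and the 2 with the largest absolute difference are named, plus Kat5 (picked after values were seen), and from all genes the 5 most like H2az2 by each measure. A listed gene is represented by its probe set of highest mean. Some genes of the lists are not analysed here.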

Additional observations from a re-analysis of the deposited data

How the results depend on the processing

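Replicate numbers are shared by both groups in the labels, but same-numbered arrays did not deviate together (correlations of deviations 0.0649, -0.203 and 0.0633). With a replicate block, 59 probe sets passed in place of 85 and 1 member in place of 2. The unpaired test of the methods called 0 probe sets and 0 members, the neuron term 7 and 0, the proliferation term 2 and 0, and the threshold of the methods (p taken as unadjusted) 117 and 1. Omitting 1 array left 21 (without control replicate 2) to 46 probe sets, and 1 to 2 members. Every alternative kept H2az2 lower, and its side of the adjusted threshold is given as a description only. For 1428029_a_at the threshold was missed with the unpaired test (-0.72), the block (-0.72), the neuron term (-0.76), the proliferation term (-0.74) and without Ezh2 cko replicate 1 or 3 or control replicate 2 or 3, while omitting any 1 array gave -0.75 to -0.70. For 1436596_at it was missed with the unpaired test (-0.90), the neuron term (-1.01) and the proliferation term (-0.96), while omitting any 1 array gave -0.94 to -0.86. The causes were not tested.

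Over the other 22 probe sets no alternative produced a call, and 35 of 365 values changed sign, all for differences of at most 0.0919 as first computed. With the neuron and then the proliferation term these were H2az1 1438092_x_at (-0.068, -0.093), Srcap 1457718_at (-0.36, -0.15), Ep400 1426860_at (0.095, 0.12), Ep400 1447349_s_at (0.088, 0.081), Anp32e 1451356_at (0.040, 0.011) and Ruvbl1 (0.093, 0.054), and with the proliferation term alone Ep400 1449610_at (-0.022). Array weights turned Srcap 1457718_at (-0.012) and Anp32e 1451356_at (0.0080). Median centring turned Anp32e 1451356_at (0.00098), and cyclic loess turned it (0.019) and H2az1 1438091_a_at (0.0084). Omitting 1 array gave ranges across 0 for H2az1 1438091_a_at (-0.033 to 0.016) and 1438092_x_at (-0.020 to 0.19), Srcap 1457718_at (-0.16 to 0.16), Ep400 1426860_at (-0.13 to 0.029), 1437020_at (-0.0085 to 0.14), 1447349_s_at (-0.14 to 0.038) and 1449610_at (-0.040 to 0.13), Anp32e 1451356_at (-0.027 to 0.022) and Ruvbl1 (-0.13 to 0.0047).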
